A study of Rattus norvegicus with 18 samples.

Results

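The genes of glutamate uptake and of the glutamine cycle were read from the cerebral cortex of rats after subarachnoid hemorrhage (SAH). They are 7 genes, chosen by name from the 30735 genes of the count table: the glutamate transporters Slc1a1, Slc1a2 and Slc1a3, the enzymes Glul and Glud1, and the glutamine transporters Slc38a1 and Slc38a3. All 7 were among the 18444 genes tested. At SAH 1d, Glud1 was lower than in sham and at SAH 7d it was higher than at SAH 1d, while the other 6 genes passed the test in no comparison. Both Glud1 calls were at the edge of the threshold. With 1 library left out, the first was lost in 6 of 12 fits and the second in 10 of 12.

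RNA-seq was done on 18 libraries, with 6 in each of the groups sham, SAH 1d and SAH 7d. All animals were adult Sprague Dawley rats with no genetic modification named in the labels or methods. In the SAH groups, a filament pushed up the internal carotid artery pierced the vessel wall inside the skull, and the cortex was taken 1 day or 7 days later. Sham rats had the same operation without the perforation, and the time at which their cortex was taken is not given in the sources used here. The labels name the cortex of both sides and the methods that of the operated side, so which was used is not settled here. Since the tissue was homogenized, each value is a mixture of neurons, glia, vessels and any blood or membrane that came with it. In such bulk samples, fewer cells of a type and less RNA per cell cannot be told apart.

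Excitatory neurons release glutamate, and transporters driven by the sodium gradient clear it from the synapse, most of it into astrocytes. In astrocytes, glutamine synthetase joins ammonia to glutamate and makes glutamine, which leaves the cell and is taken up by neurons, where glutaminase turns it back into glutamate. Glutamate dehydrogenase instead feeds glutamate into the citric acid cycle, and extracellular glutamate that is not cleared is toxic to neurons.

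The promoters of the enzymes are shown because Glul and Glud1 both use glutamate and their ratio was the only 1 of 3 ratios between members that did not overlap between sham and SAH 1d. RefSeq windows of the GRCr8 assembly, from 250 bases before to 50 bases after an annotated start, were given for 5 of the 7 genes. Glud1 has 1 window at chr16:9646319-9646618 on the plus strand, and Glul has 2 on the plus strand, at chr13:68519250-68519549 and chr13:68575816-68576115. Capitals mark the GC box, GGGCGG on either strand.
Glud1: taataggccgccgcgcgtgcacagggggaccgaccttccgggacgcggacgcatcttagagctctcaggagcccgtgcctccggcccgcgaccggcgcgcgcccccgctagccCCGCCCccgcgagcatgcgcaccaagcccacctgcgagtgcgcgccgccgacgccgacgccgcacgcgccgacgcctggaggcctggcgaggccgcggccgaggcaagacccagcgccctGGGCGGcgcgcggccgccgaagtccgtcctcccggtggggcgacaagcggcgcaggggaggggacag
Glul, first window: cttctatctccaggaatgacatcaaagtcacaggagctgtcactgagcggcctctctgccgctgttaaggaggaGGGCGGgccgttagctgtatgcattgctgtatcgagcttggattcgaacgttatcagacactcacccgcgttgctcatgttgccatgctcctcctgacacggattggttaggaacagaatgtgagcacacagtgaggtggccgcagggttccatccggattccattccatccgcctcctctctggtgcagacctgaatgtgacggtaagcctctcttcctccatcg
Glul, second window: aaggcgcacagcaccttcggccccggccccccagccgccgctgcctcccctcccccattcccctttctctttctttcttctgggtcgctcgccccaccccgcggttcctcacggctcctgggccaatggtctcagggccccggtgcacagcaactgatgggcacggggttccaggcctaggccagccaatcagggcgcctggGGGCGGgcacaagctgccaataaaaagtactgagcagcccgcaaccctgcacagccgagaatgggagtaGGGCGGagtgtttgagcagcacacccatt
The Glud1 window holds 2 GC boxes with 78.0% G and C, against a median of 51.7% over the 33469 rat promoter windows. The Glul windows hold 1 and 2 GC boxes with 54.7% and 65.7% G and C, and 33.1% of all windows hold at least 1. A match to these letters is a description of the sequence, and the data give no readout of binding.

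Total counts ranged from 27270026 to 38271014 per library. Levels are given as CPM, counts scaled to 1e+06 per library with TMM factors, which serve to compare 1 gene between libraries, and as FPKM, which are per length and serve to compare genes. SAH 1d-3 and SAH 7d-5 stood apart from their groups, and their numbers are those of the table columns. SAH 7d-5 had a summed CPM of 8177 over the macrophage markers, against a median of 128 in its group. Of this sum, 8006 CPM came from Lyz2 alone. The neuron marker sum of SAH 7d-5 was 2851 CPM, the lowest of all libraries. Between SAH 1d and sham, 4684 of the 18444 genes were called at a Benjamini-Hochberg adjusted p under 0.05 in edgeR's quasi-likelihood test. Of these, 58.7% were higher at SAH 1d, against 79.0% of the calls on the FPKM scale.

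In sham cortex, Glul had the highest level per length, with 650.2 FPKM ± 108 (SD, n = 6). Slc1a3 followed at 267 FPKM ± 48.3, Glud1 at 169 FPKM ± 30.2 and Slc1a2 at 73.5 FPKM ± 13.5. Slc38a3 at 29.2 FPKM ± 2.47, Slc1a1 at 26.8 FPKM ± 3.41 and Slc38a1 at 22.4 FPKM ± 3.32 were the lowest. The ranges of Glul and Slc1a3, of Glud1 and Slc1a2, and of Slc1a2 and Slc38a3 did not overlap in sham. The neighbours Slc1a3 and Glud1, Slc38a3 and Slc1a1, and Slc1a1 and Slc38a1 did overlap, although Slc1a3 was above Glud1 in each of the 6 libraries.

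**Figure D1:**
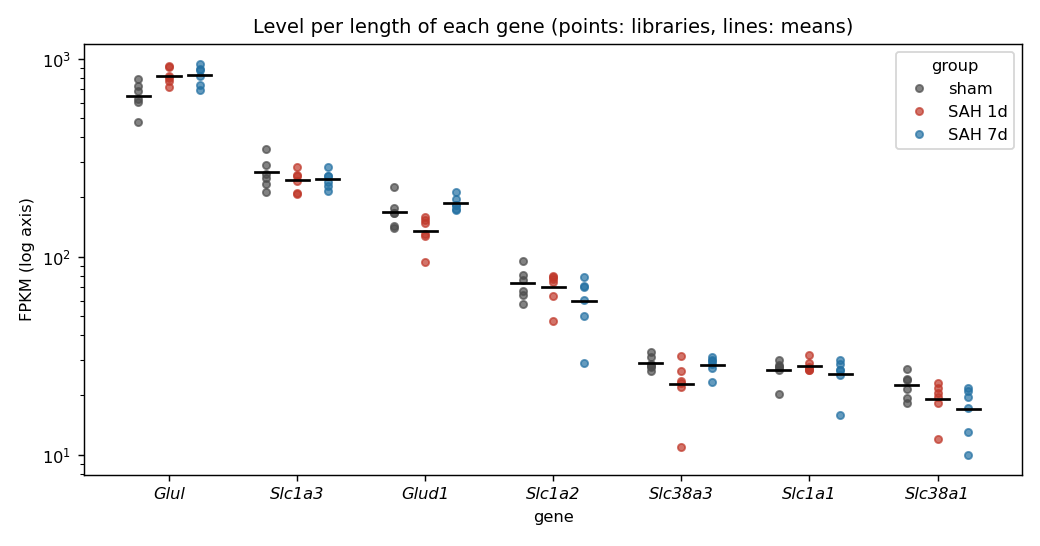
FPKM of the 7 genes in each library on a log axis, by group, with lines at the group means. Glul stood highest in all groups at 479 to 944 FPKM, and Slc38a3, Slc1a1 and Slc38a1 had the lowest group means.

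The level of Slc1a2 has a limit of its own. The counts and FPKM together imply that its row was scaled to a transcript with 22.6% of the length used for Slc1a3, the shortest among the 7 genes, which had 53.9% to 95.8% otherwise. Its CPM therefore cannot be set against that of Slc1a3. Which transcripts its row covers is not given in the sources used here. Its FPKM and its place in the order thus hold for that row only and may not give the full level of the gene. At SAH 1d the order was the same except that Slc1a1, at 28.2 FPKM ± 2.03, stood above Slc38a3, at 22.8 FPKM ± 6.75, with overlapping ranges. At SAH 7d the order of the means was that of sham. The ranges of Slc1a3 and Glud1 were just apart there, at 215 FPKM or more against 213 FPKM or less, with a ratio of means of 1.32. Those of Slc1a2 and Slc38a3 overlapped, with Slc1a2 at 29.0 FPKM in SAH 7d-5.

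Slc1a3 encodes GLAST, a glutamate transporter of astrocytes. It ranged from 914 to 1532 CPM in sham with a median of 1062, from 800.2 to 1065 CPM at SAH 1d with a median of 958, and from 889 to 1163 CPM at SAH 7d with a median of 982. The groups overlapped, and sham-1 and sham-3 were the highest libraries of all. The change was -0.27 ± 0.13 (log2, SE) at SAH 1d versus sham, with an adjusted p of 0.124, and -0.19 ± 0.13 at SAH 7d versus sham, with an adjusted p of 0.465.

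Slc1a2 encodes GLT-1, the main glutamate transporter of forebrain astrocytes. It ranged from 55.5 to 95.9 CPM in sham with a median of 66.4, from 42.1 to 69.6 CPM at SAH 1d with a median of 66.9, and from 26.2 to 72.7 CPM at SAH 7d with a median of 60.7. The groups overlapped, and the lowest values were those of SAH 7d-5 and SAH 1d-3. The change was -0.19 ± 0.15 (log2, SE) at SAH 1d versus sham, with an adjusted p of 0.371, and -0.34 ± 0.22 at SAH 7d versus sham, with an adjusted p of 0.431. The 95% interval of the latter, from -0.81 to 0.13, still holds a fall to 0.57 of the sham level.

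Slc1a1 encodes EAAC1, the glutamate transporter of neurons. It ranged from 86.5 to 117 CPM in sham with a median of 111, from 97.3 to 121 CPM at SAH 1d with a median of 102, and from 60.2 to 115 CPM at SAH 7d with a median of 106. Apart from sham-1 and SAH 7d-5, the libraries lay between 97.3 and 121 CPM in all groups. It had the smallest change of the 7 genes at SAH 1d versus sham, -0.04 ± 0.08 (log2, SE, adjusted p = 0.782 in edgeR), with a 95% interval from -0.22 to 0.15. On the FPKM scale this value was 0.08, with the other sign.

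**Figure D2:**
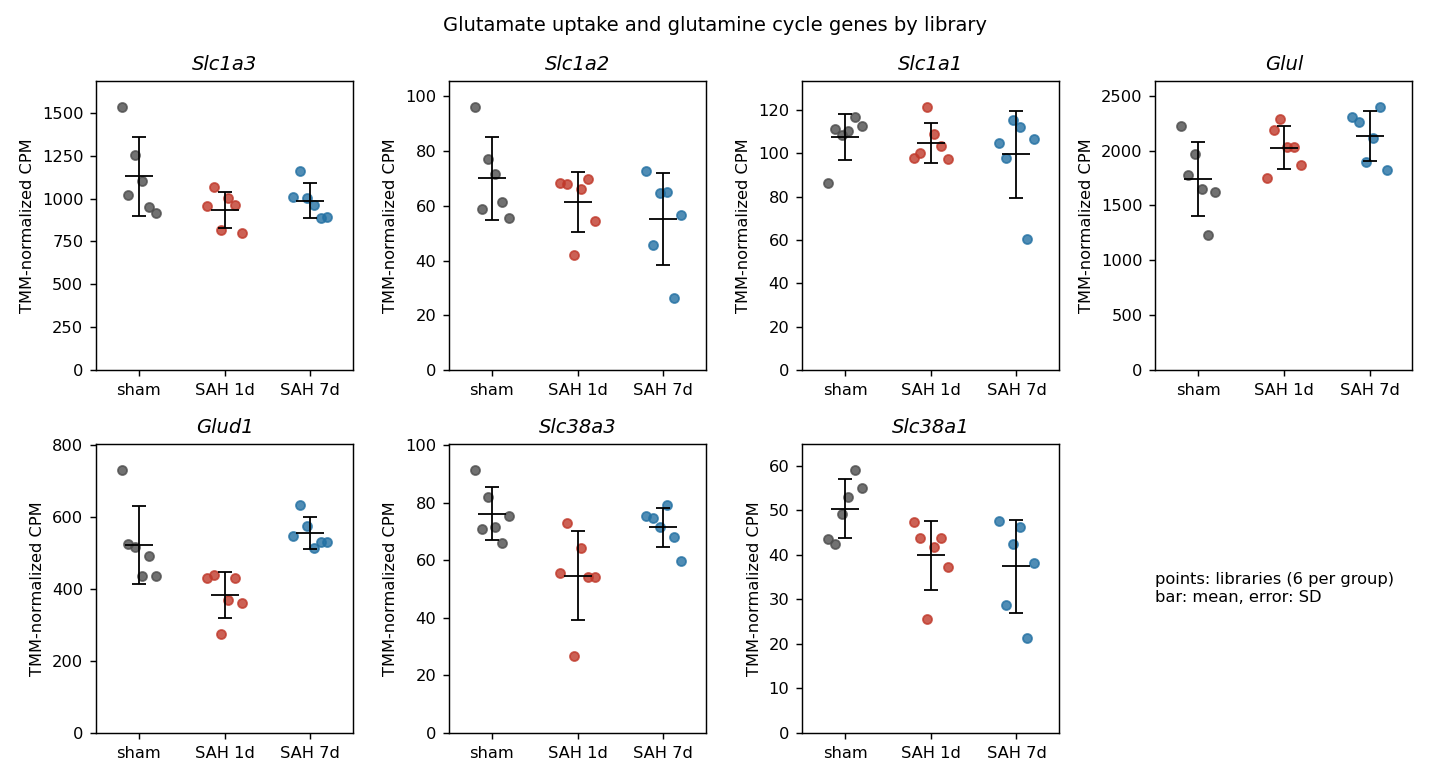
TMM-normalized CPM of the 7 genes, 1 point per library, with the mean and SD of each group of 6. Glud1 is the only gene with SAH 7d values, 512 to 634 CPM, that all lie above the SAH 1d values, 273 to 439 CPM.

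Glul encodes glutamine synthetase, which in brain is found mainly in astrocytes. It ranged from 1231 to 2226 CPM in sham with a median of 1713, from 1750 to 2286 CPM at SAH 1d with a median of 2035, and from 1825 to 2394 CPM at SAH 7d with a median of 2185. The medians of both SAH groups were above that of sham, and the ranges overlapped. The change was 0.22 ± 0.12 (log2, SE) at SAH 1d versus sham, with an adjusted p of 0.213, and 0.29 ± 0.14 at SAH 7d versus sham, with an adjusted p of 0.342. On the log2(FPKM + 1) scale the SAH 1d value was 0.35 with a limma adjusted p of 0.0384, in a fit where the median of all genes was at 0.09.

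Glud1 encodes mitochondrial glutamate dehydrogenase. It had 730, 526, 517, 436, 490 and 436 CPM in sham-1 to sham-6. At SAH 1d it had 431, 439, 273, 369, 431 and 361 CPM, and at SAH 7d 546, 634, 575, 512, 531 and 530 CPM. Every SAH 7d library was above every SAH 1d library, while sham overlapped with SAH 1d by the narrow margin of sham-4 and sham-6 below SAH 1d-2.

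Glud1 fell at SAH 1d to 0.736 of its sham level (95% interval 0.595 to 0.909). The change was -0.44 ± 0.14 (log2, SE, n = 6 and 6, adjusted p = 0.0360 in edgeR), below sham's lowest library in 5 of 6 SAH 1d libraries. It was the only 1 of the 7 genes called lower, with none called higher, against 25.4% of all genes called, 10.5% lower and 14.9% higher. None of the 7 genes had groups that did not overlap, against 13.3% of all genes. The call is at the edge of the threshold. It was lost when any of sham-1, sham-2, sham-3, sham-5, SAH 1d-4 or SAH 1d-6 was left out, with adjusted p up to 0.0654, and without sham-1 the change was -0.32. On the log2(FPKM + 1) scale it was -0.32 with a limma adjusted p of 0.0960. Without SAH 1d-3 both Glud1, at -0.36 with an adjusted p of 0.0425, and Slc38a3 were called in edgeR.

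From SAH 1d to SAH 7d, Glud1 rose 1.44-fold (95% interval 1.21 to 1.72). The change was 0.53 ± 0.12 (log2, SE, n = 6 and 6, adjusted p = 0.0484 in edgeR). It was the 1 of the 7 genes called, against 1.37% of all genes called and 0.282% called higher, and the only 1 without overlap between the groups, against 3.05% of all genes and 0.938% with SAH 7d higher. This call too is at the edge of the threshold. It was lost with any of 10 of the 12 libraries left out, with adjusted p up to 0.125, and remained without SAH 1d-3 (0.0286) and without SAH 7d-5 (0.0180). Without both of these libraries the adjusted p was 0.00387. The call was also lost with no filter, with at least 10 counts in every library, with a replicate block and on the FPKM scale. It held in DESeq2, in limma voom and in the fit of all 18 libraries. Against sham, Glud1 at SAH 7d differed by 0.09 ± 0.12 (log2, SE), with a 95% interval from -0.18 to 0.36. The comparisons with SAH 1d share the SAH 1d libraries, so the fall and the rise are not independent.

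**Figure D3:**
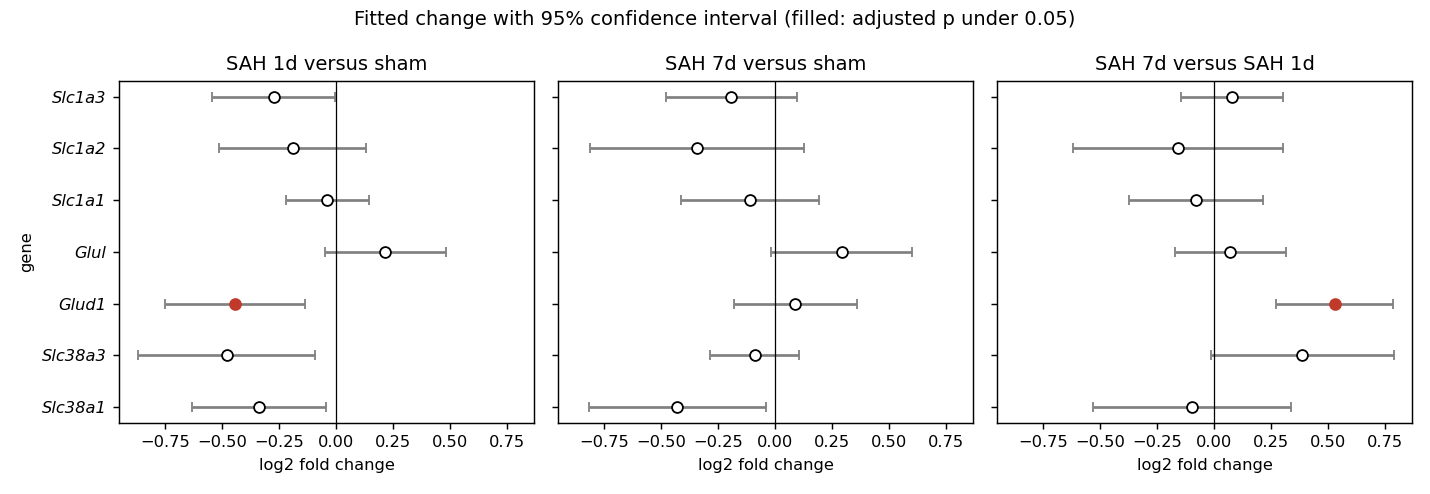
Fitted log2 fold change of each gene with its 95% confidence interval in the 3 comparisons, filled where the adjusted p is under 0.05. Glud1 is filled at -0.44 for SAH 1d versus sham and at 0.53 for SAH 7d versus SAH 1d, and no gene is filled for SAH 7d versus sham.

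Within a library, the ratio of Glul to Glud1 does not depend on how libraries are scaled. The log2 ratio of CPM was 1.74 ± 0.236 (SD, n = 6) in sham, 2.41 ± 0.352 at SAH 1d and 1.94 ± 0.183 at SAH 7d. The highest sham library was at 1.93 and the lowest SAH 1d library at 2.02, so these groups did not overlap. SAH 1d-3 had the highest ratio, 3.06, and SAH 7d overlapped with both groups. The ratio was not tested, since its genes had been fitted one by one.

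For Slc1a2 to Slc1a3, the log2 ratio of CPM was -4.01 ± 0.0629 in sham, the tightest of the ratios. It was -3.94 ± 0.178 at SAH 1d and -4.23 ± 0.523 at SAH 7d. The groups overlapped, and SAH 7d-5 was the lowest library at -5.09. Because of the short length used for Slc1a2, this ratio serves to compare groups and not the levels of the 2 genes. In FPKM, with the limit on Slc1a2 given above, it was -1.86 in sham, -1.80 at SAH 1d and -2.10 at SAH 7d. For Slc38a3 to Slc38a1, the log2 ratio of CPM was 0.599 ± 0.316 in sham, 0.418 ± 0.257 at SAH 1d and 0.983 ± 0.433 at SAH 7d. All of its groups overlapped.

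Slc38a3 encodes SNAT3, a transporter through which astrocytes release glutamine. It had 91.3, 70.8, 81.8, 71.6, 66.0 and 75.3 CPM in sham-1 to sham-6 and 55.7, 72.8, 26.7, 64.2, 54.3 and 54.1 CPM in SAH 1d-1 to SAH 1d-6. At SAH 7d it ranged from 59.8 to 79.1 CPM with a median of 73.1. Of the SAH 1d libraries, 5 were below the lowest sham library, and SAH 1d-2 lay inside the sham range.

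Slc38a3 had the largest fitted change of the 7 genes at SAH 1d versus sham, -0.48 ± 0.18 (log2, SE), and missed the threshold with an adjusted p of 0.0662 in edgeR. Without SAH 1d-3 the change was smaller, -0.34, and passed with an adjusted p of 0.0204. It also passed without SAH 1d-2, at -0.58 with an adjusted p of 0.0383, and in DESeq2 with an adjusted p of 0.0352. Slc38a3 at SAH 7d was -0.09 ± 0.09 against sham, with a 95% interval from -0.29 to 0.11, and against SAH 1d it was 0.39 ± 0.19, with an adjusted p of 0.358.

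Slc38a1 encodes SNAT1, a glutamine transporter of neurons. It ranged from 42.4 to 59.0 CPM in sham with a median of 51.1, from 25.5 to 47.4 CPM at SAH 1d with a median of 42.7, and from 21.4 to 47.6 CPM at SAH 7d with a median of 40.3. Both SAH groups overlapped with sham, and SAH 7d-5, SAH 1d-3 and SAH 7d-2 were the lowest libraries. The change was -0.34 ± 0.14 (log2, SE, adjusted p = 0.0872 in edgeR) at SAH 1d versus sham. Against sham, the SAH 7d value was -0.43 ± 0.18, the largest of the 7 genes there, with an adjusted p of 0.294.

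In the comparison of SAH 7d with sham, none of the 7 genes was called by edgeR, as for all genes (0.0% called, 15.4% with an unadjusted p under 0.05). DESeq2 called 459 genes in this comparison, none of them among the 7. No gene of the 7 had SAH 7d and sham ranges apart, against 1.23% of all genes. The median change of the 7 genes was -0.273 (log2) at SAH 1d versus sham, with 6 of 7 below 0, against 0.009 for all genes. For SAH 7d versus sham it was -0.11, with 5 of 7 below 0, against -0.004 for all genes. The number below 0 at SAH 1d depends on the scaling. The TMM factors were 0.908 to 1.003 in sham and 1.016 to 1.079 at SAH 1d. On the log2(FPKM + 1) scale Slc1a1 was above 0 at SAH 1d versus sham, at 0.0763, and the median of all genes was 0.09.

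**Figure D4:**
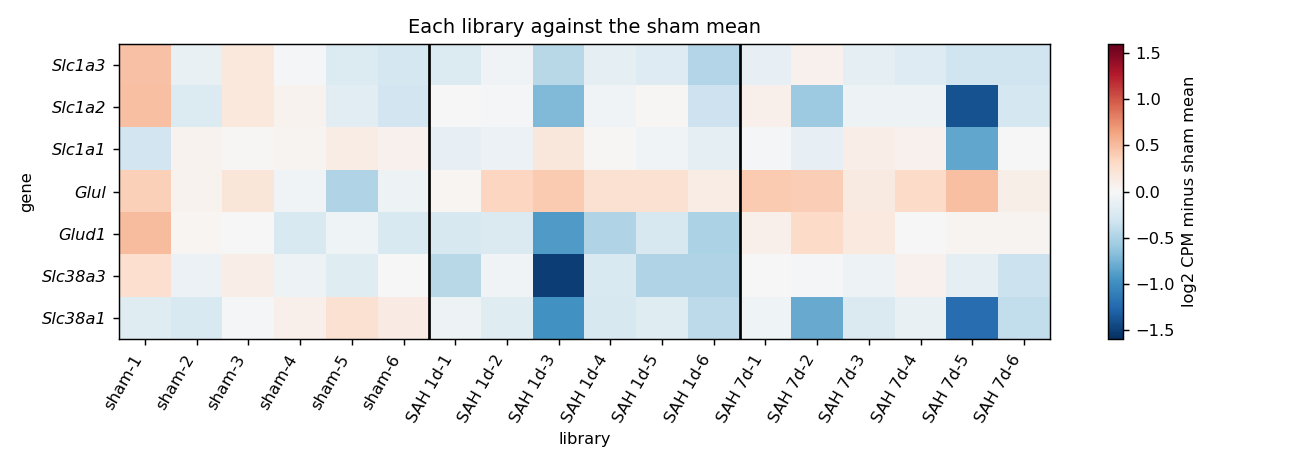
Log2 CPM of each gene in each library minus the sham mean, from blue (below) to red (above). SAH 1d-3 is lowest for Slc38a3 at -1.50, SAH 7d-5 is lowest for Slc1a2 at -1.39, and Glul is above the sham mean in both of these libraries.

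Some libraries differed from their group in several genes at once. SAH 1d-3 was the lowest of its group for Slc1a2, Glud1, Slc38a1 and Slc38a3 and the highest for Glul and Slc1a1. SAH 7d-5 was the lowest of its group for Slc1a1, Slc1a2, Slc1a3 and Slc38a1 and the highest for Glul. Sham-1 was the highest of its group for Slc1a2, Slc1a3, Glul, Glud1 and Slc38a3 and the lowest for Slc1a1.

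After the group means were subtracted, the closest pair over the 18 libraries was Slc1a3 and Glud1, with r = 0.777 in log2 CPM. The next was Slc1a2 and Slc38a1 with r = 0.763, which was 0.348 over the 16 libraries other than SAH 1d-3 and SAH 7d-5. Glul and Slc38a1 had the lowest value, r = -0.504, and -0.415 over the 16 libraries. The order of the pairs depends on these libraries, since over the 16 the lowest pair was Slc1a1 and Glud1, with r = -0.756 against -0.373 over all 18. These values describe the libraries, which share tissue composition and depth, and no p is given.

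Genes with the most similar course over the 18 libraries were looked up for each gene, by Pearson's r of log2 CPM. Only the highest values of this search are given. Spearman's rank correlation was lower for most of these pairs, down to 0.598 for Slc1a3 and Map3k7cl. It was higher for Glul with Apol3 (0.876) and She (0.862). With group means subtracted, r was still 0.736 or more, so much of it came from differences within groups. How far these values rest on the libraries that stood apart was not tested. Glud1 was closest to Slc15a2, a peptide transporter, with r = 0.942, to RGD1559896 with r = 0.921, and to Nadk2, the mitochondrial NAD kinase, with r = 0.911. Slc38a3 was closest to Igdcc4 (r = 0.964), to Bcan (r = 0.961), which encodes the matrix proteoglycan brevican, and to Prodh (r = 0.941), the proline dehydrogenase of mitochondria. Slc1a3 had no gene above r = 0.814, which was that of Map3k7cl, followed by Myh11 at 0.811 and S1pr1 at 0.807.

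For Slc1a2 the nearest were Wasf3 (r = 0.957), Kif5a (r = 0.947) and Adcy1 (r = 0.919), and for Slc38a1 Adgrl1 (r = 0.955), Add2 (r = 0.945) and Ttl (r = 0.945). Kif5a encodes a kinesin of neurons. For Slc1a1 they included Map7d2 (r = 0.953) and Bcat1 (r = 0.947). For Glul they were Apol3 (r = 0.863), Ndrg1 (r = 0.843) and She (r = 0.837).

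Markers of some cell types differed between SAH 1d and sham. At SAH 7d versus sham no marker was called, as for all genes. All markers tested were above 0 there for microglia (median 1.66, log2), meningeal fibroblasts (2.16) and macrophages (1.44). All were below 0 for neurons (-0.278), red cells, oligodendrocytes and striatum. SAH 7d-5 had sums of 2925.5 CPM for microglia (group median 500) and 3899 CPM for fibroblasts (group median 277). At SAH 7d versus SAH 1d, only the microglia marker Tmem119 was called, at 1.56. All 8 neuron markers were called lower at SAH 1d versus sham, against 10.5% of all genes, with a median of -0.572 (log2). Their summed CPM ranged from 7644 to 11131 in sham, from 5874 to 7224 at SAH 1d and from 2851 to 10382 at SAH 7d. Of the 10 astrocyte markers, 4 were called at SAH 1d versus sham, against 25.4% of all genes. Gfap and Sox9 rose and Aldh1l1 and Aldoc fell, with changes of 3.003, 0.80, -0.85 and -0.62 (log2) in that order. The astrocyte sum was 3972 to 6452 CPM in sham and 6338 to 7580 CPM at SAH 1d, and all 10 markers were detected. Without Gfap the sum of the other 9 markers was 3669 to 5912 CPM in sham and 2568 to 4645 CPM at SAH 1d, so the SAH 1d mean was above sham with Gfap and below it without. The parts of these shifts in the values of the 7 genes were not tested.

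Markers of other cells also differed at SAH 1d. The choroid plexus sum was 4.54 to 1058 CPM at SAH 1d and 3.44 to 67.8 CPM in sham, and its marker Ttr was at 640 CPM in SAH 1d-4 and 933 CPM in SAH 1d-6, against at most 57.8 CPM in sham. The leave-one-out fits of Glud1 are given above, and the loss of a call so near the threshold cannot be assigned to what a library holds. A link between the Glud1 values and the choroid plexus markers was not tested. SAH 1d-3 had the highest sums of its group for the macrophage markers, 493 CPM against a median of 110, the neutrophil markers, 73.4 CPM against a median of 30.3, and the red cell markers, 189 CPM against a median of 81.6. In sham the medians of these sums were 77.7, 1.05 and 42.3 CPM. Single genes made up most of some sums. Lyz2 alone was at 466 CPM in SAH 1d-3, where Cd163, at 7.20 CPM, and Mrc1, at 14.0 CPM, were below SAH 1d-2. Of the neutrophil markers, Lcn2 had a median of 27.2 CPM at SAH 1d, against 1.20 CPM for S100a9 and 0.369 CPM for Mmp8. In SAH 1d-3, S100a9 was at 30.5 CPM. The part of these markers in the values of the 7 genes was not tested.

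Sham-1 had the highest summed CPM of its group for the striatum markers, 1063 against a lowest value of 189, and for the oligodendrocyte markers, 18595 against a lowest value of 8216. The striatum sum was 98.9 to 532 CPM at SAH 1d, and 98.9 was that of SAH 1d-3. None of the 6 oligodendrocyte markers and 1 of the 5 striatum markers was called at SAH 1d versus sham, against 25.4% of all genes. All 5 striatum markers were below 0 there, with a median change of -1.24 (log2). They were also all below 0 at SAH 7d versus sham, with a median of -0.95 and none called. The median striatum sum was 607 CPM in sham, 314 CPM at SAH 1d and 339 CPM at SAH 7d, with overlapping ranges. The part of dissection in the values of Glud1 and the other 6 genes was not tested. The Glud1 value without sham-1 is given above.

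Other genes that handle glutamate and glutamine were followed in 8 lists of 41 genes, of which 38 were tested. At SAH 1d versus sham 13 of the 38 were called, 5 higher and 8 lower, against 25.4% of all genes, and their median change was -0.122 (log2), against 0.009 for all genes. The groups did not overlap for 8 of the 38, against 13.3% of all genes. In the comparison of SAH 7d with sham none was called, against 0.0% of all genes. At SAH 7d versus SAH 1d only Oat was, 1 of 38, which is near the 1.37% of all genes.

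Gls2, which encodes a glutaminase that releases glutamate from glutamine, fell at SAH 1d. It ranged from 48.4 to 59.0 CPM in sham with a median of 53.2, and from 20.6 to 45.6 CPM at SAH 1d with a median of 37.7. The ranges were apart, and the change was -0.57 ± 0.15 (log2, SE, adjusted p = 0.0145 in edgeR). The call held with each library left out.

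The other SLC1 genes moved both ways. Slc1a5, which encodes the neutral amino acid transporter ASCT2, ranged from 2.63 to 4.13 CPM in sham and from 6.58 to 26.4 CPM at SAH 1d. It rose by 1.76 ± 0.32 (log2, SE, adjusted p = 0.00215 in edgeR), and by 1.30 without SAH 1d-3, its highest library. Slc1a6, which encodes the glutamate transporter EAAT4, fell by 0.86 ± 0.24, at 0.710 to 1.90 CPM against 2.04 to 3.08 CPM in sham. Slc1a4, the most abundant of this list, was not called at 0.25 ± 0.14.

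Of the other SLC38 genes, Slc38a2, which encodes the glutamine transporter SNAT2, was the only 1 of 7 tested that was called. It ranged from 179.7 to 256 CPM in sham and from 257 to 356 CPM at SAH 1d. The groups were just apart, and the change was 0.60 ± 0.11 (log2, SE, adjusted p = 0.00183 in edgeR). It thus rose at SAH 1d, while Slc38a1 and Slc38a3 had negative values that missed the threshold. The difference between these genes was not tested.

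Slc3a2, the heavy chain that the cystine-glutamate exchanger shares with other transporters, ranged from 131 to 174 CPM in sham and from 206 to 339.7 CPM at SAH 1d. It rose by 0.79 ± 0.13 (log2, SE, adjusted p = 0.00115 in edgeR), with its groups apart. Its partner Slc7a11, the light chain of the exchanger, was not called at 0.39 ± 0.22. Slc17a7, which encodes the vesicular glutamate transporter VGLUT1 of cortical neurons and is also on the neuron marker list, fell by 0.56 ± 0.18 with an adjusted p of 0.0326, a call that was lost in 6 of 12 leave-one-out fits and on the FPKM scale (limma adjusted p = 0.0947).

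Among the enzymes, Oat, the ornithine aminotransferase that makes glutamate semialdehyde, was the only gene of the lists called in both comparisons with SAH 1d. It ranged from 148 to 159 CPM in sham, from 109 to 125 CPM at SAH 1d and from 138 to 163 CPM at SAH 7d, and the SAH 1d libraries were below all others. It fell by 0.40 ± 0.06 (log2, SE, adjusted p = 0.000715 in edgeR) at SAH 1d versus sham. From SAH 1d to SAH 7d it rose by 0.42 ± 0.07 (adjusted p = 0.0160), and without SAH 7d-2 this adjusted p was 0.0502.

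Got1, the cytosolic aspartate aminotransferase, fell by 0.50 ± 0.11 (log2, SE) at SAH 1d versus sham with an adjusted p of 0.00778, and on the log2(FPKM + 1) scale it was -0.36 with a limma adjusted p of 0.0554. Prodh fell by 0.80 ± 0.28 with an adjusted p of 0.0498, and its call was lost in 10 of 12 leave-one-out fits and on the FPKM scale (limma adjusted p = 0.0613). Asns, the asparagine synthetase that uses glutamine as its nitrogen donor, rose by 0.43 ± 0.14 with an adjusted p of 0.0381, a call lost in 7 of 12 such fits. Bcat1, a branched-chain aminotransferase and the most abundant of this list, was at -0.10 ± 0.14.

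Of the mitochondrial carriers, Slc25a13, the aspartate-glutamate carrier citrin, rose at SAH 1d versus sham by 0.52 ± 0.17 (log2, SE) with an adjusted p of 0.0391, which was lost in 8 of 12 leave-one-out fits. Against sham, its SAH 7d value was 1.16 ± 0.31 with its groups apart, and the adjusted p was 0.214. SAH 7d-5 had 18.8 CPM and the other SAH 7d libraries 5.64 to 7.26 CPM, and without SAH 7d-5 the value was 0.78 ± 0.18 with an adjusted p of 0.118. Slc25a22, the most abundant of the carriers, was at -0.05 ± 0.10 at SAH 1d versus sham.

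**Figure D5:**
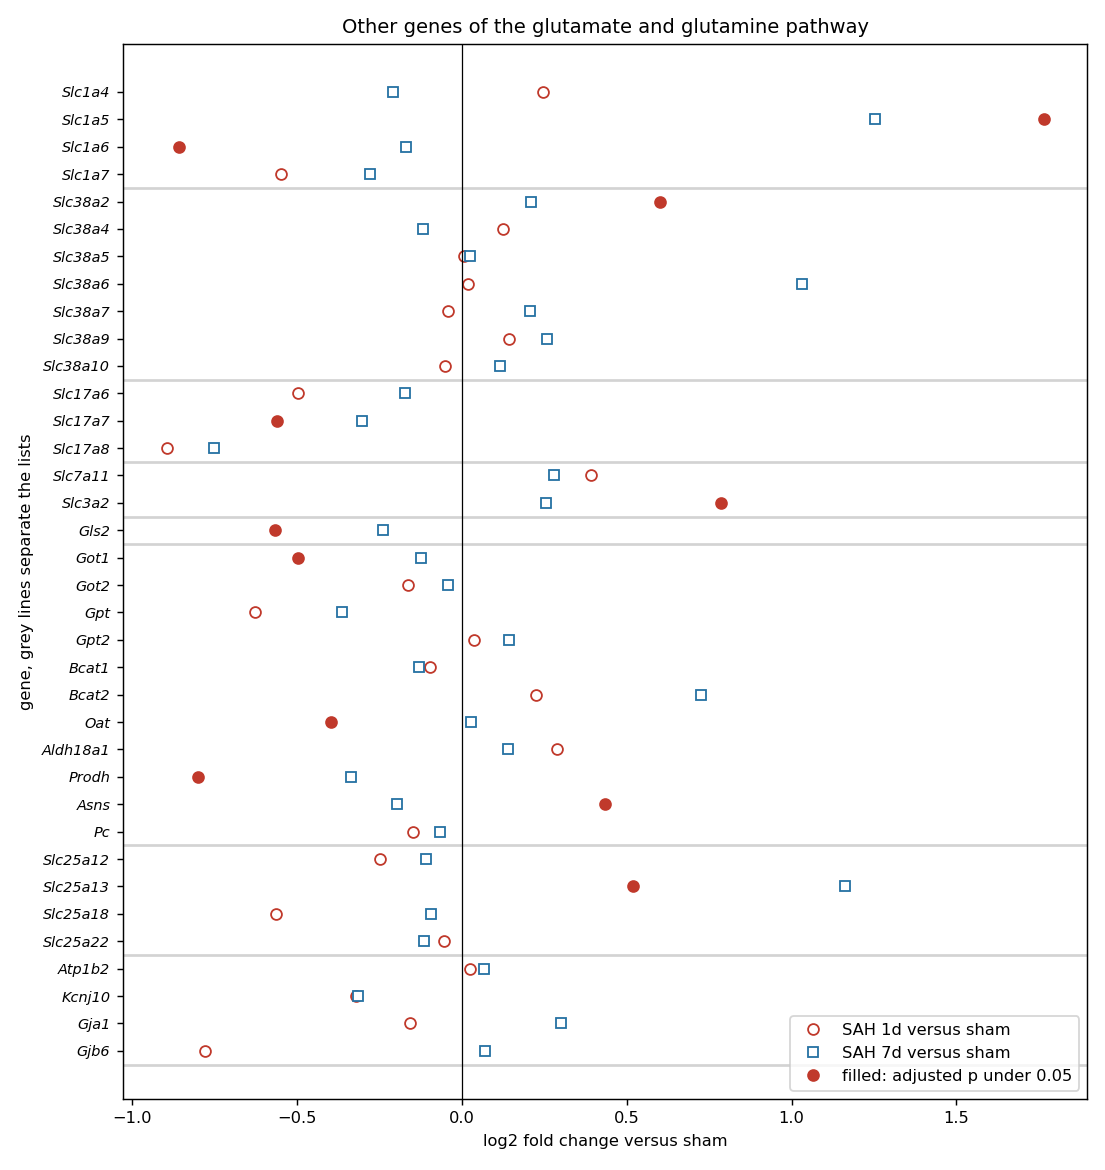
Log2 fold change versus sham of 36 of the 38 tested genes of the other lists at SAH 1d (circles) and SAH 7d (squares), filled where the adjusted p is under 0.05. At SAH 1d, 5 circles are filled to the right of 0 and 6 to the left, from Slc1a5 at 1.76 to Slc1a6 at -0.86, and no square is filled.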

How the data were processed

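The authors removed reads with adapters or low quality and aligned the rest; the study's methods name the Rnor_6.0 rat genome, and the submitters' processing notes name fastp, HISAT2, DESeq2 1.16.1 and the build mm9. The counting program is not given in the sources used here. Counts were deposited as raw whole numbers for each gene in each library. The authors also deposited FPKM, which scale fragments by transcript length and by 1e+06 mapped reads. Groups come from the column names, which match the descriptions in the labels; the labels and the methods differ on the build. The labels give no batch, and the methods name 18 rats in 3 groups, read here as 1 library per rat.

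The main test was that of edgeR 4.0.16 (R 4.3.3), two-sided, with filterByExpr on all 18 libraries, TMM, the quasi-likelihood F test on the 12 libraries of a comparison and Benjamini-Hochberg adjustment over 18444 genes, of which a call needs an adjusted p under 0.05. SE is the size of the log2 fold change divided by the square root of F. Loci outside the annotation, 8685 of 30735 rows, stayed in. The script was also tested on simulated data. The alternatives were DESeq2 1.42.0, limma 3.58.1 (voom with quality weights, and log2(FPKM + 1) or + 0.1 with a mean FPKM of at least 0.5 or no filter), DESeq2 size factors, all 18 libraries in 1 fit, no filter, at least 10 counts in every library, a replicate block, and libraries left out. Total counts were 27270026 to 38271014, and errors come from the spread between libraries. Tables and plots used Python 3.11.15, numpy 2.4.6, pandas 2.3.3 and matplotlib 3.10.9.

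The members and lists were chosen with earlier results of these data known. The text names all 7 members, list genes that were called, the most abundant gene of each list and the 3 genes most like each member (mean of at least 1 CPM, with a symbol); marker genes and Slc7a11 were named after their values were seen. Prodh has the older symbol Prodh1 in the table. Aldh4a1, Pecam1 and Ccr2 were not analysed here. Some genes that this rule would name are counted in the lists but not reported here.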

Additional observations from a re-analysis of the deposited data

Results flagged for a closer look

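Within groups of 6, a library was looked at again where its gap to the nearest other library was more than 0.625 of the whole range (Dixon's test). For Slc1a1, sham-1 had 86.5 CPM and the other sham libraries 108 to 117 CPM. For the same gene, SAH 7d-5 had 60.2 CPM and the other SAH 7d libraries 97.8 to 115 CPM. For Glud1, sham-1 had 730 CPM and the other sham libraries 436 to 526 CPM. These are 3 of 21 groups of libraries, where chance gives about 1 in 20 for a single group. The 21 groups are 7 genes in the same 18 libraries, and sham-1 was flagged for both Slc1a1 and Glud1. They are not independent, so the count cannot show an excess over chance.

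The effects at SAH 7d and SAH 1d, each against the same sham libraries, differed for Glud1 by 0.53 (log2, edgeR adjusted p = 0.0484) and for Oat by 0.42 (adjusted p = 0.0160). Both were tested as SAH 7d versus SAH 1d, and Glud1 and Oat were higher in 6 of 6 SAH 7d libraries than in any SAH 1d library.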

How the results depend on the processing

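Of the members' log2 fold changes over all alternatives, 442 kept direction and side of the threshold, 25 lost a call, 7 gained one and 9 changed sign, the last with adjusted p of 0.455 to 0.987. The cause was not tested for any of these. Slc1a1 changed sign at SAH 1d versus sham on the FPKM scale (0.0763 with a pseudocount of 1, 0.0792 with 0.1 and 0.0763 with no filter). Its SAH 7d versus sham values with 1 library left out ran from -0.157 to 0.0052, the latter without SAH 7d-5 and also with SAH 1d-3 left out too. Its SAH 7d versus SAH 1d value was 0.0774 in voom and 0.0765 with both libraries left out, and ran from -0.126 to 0.0277, the latter without SAH 7d-5. Slc38a1 at SAH 7d versus SAH 1d ran from -0.195 (without SAH 1d-3) to 0.0191 (without SAH 7d-5).

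For SAH 1d versus sham, the members called were 2 in DESeq2 (Glud1 and Slc38a3), in voom and without SAH 1d-3, 0 on the FPKM scale with no filter, 1 (Glul in place of Glud1) with a filter there, and 0 to 2 with 1 library left out. The genes called were 2462 in the fit of all 18 libraries and 3517 to 5252 with 1 library left out. The list genes called were 7 in the fit of all 18 libraries, 8 on the FPKM scale with no filter and 8 to 16 with 1 library left out, the lowest without sham-3.

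For SAH 7d versus sham, the genes called were 459 in DESeq2, 2 in voom, 9 in the fit of all 18 libraries, 1 on the FPKM scale with no filter and 0 to 3 with 1 library left out, and DESeq2 called 1 list gene. For SAH 7d versus SAH 1d, the genes called were 1012 in DESeq2, 2718 in voom, 779 in the fit of all 18 libraries, 406 and 403 on the FPKM scale with pseudocounts of 1 and 0.1, 474 with no filter there, 102 (without SAH 7d-2) to 1545 (without SAH 7d-5) with 1 library left out and 2512 with both of the libraries named above left out. The share called higher was 20.6% in the main comparison and 9.61% on the FPKM scale. No member was called with no filter, with at least 10 counts in every library, or on the FPKM scale (0 in each), and 0 to 1 with 1 library left out. The list genes called were 5 in DESeq2, 10 in voom, 4 in the fit of all 18 libraries, 4 on the FPKM scale with either pseudocount and 3 with no filter, 0 to 7 with 1 library left out and 11 without both libraries.

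With the replicate block, SAH 7d versus SAH 1d gave 29 genes, 0 members and 0 list genes, and Glud1 had an adjusted p of 0.187. Same-numbered libraries had correlations of deviations from -0.252 to 0.197, with 1 of 18 pairs over 0.1, and 2 libraries were closest to their own number. No pairing by number was seen in these values. They cover all genes together and cannot exclude a small pairing or one limited to few genes. The lowest count of the 7 genes in a library was 707 (Slc38a1, SAH 7d-5).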
